A study of Mus musculus with 12 samples.

Results

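Matrix metalloproteinases and the inhibitor Timp1 were followed across mammary tumors of MADM-mutant mice. The group holds 10 of the 47593 genes in the deposited table. They were chosen by symbol: the 6 members of the metalloproteinase cluster on chromosome 9 (Mmp3, Mmp7, Mmp8, Mmp10, Mmp12 and Mmp13), the gelatinases Mmp2 and Mmp9, the membrane-type enzyme Mmp14, and Timp1. The choice was made with values of these tumors known, so levels and their spread across tumors are described without a test.

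RNA was sequenced from 12 tumors of 9 females of one condition, with no normal mammary gland among the samples used here. In MADM (mosaic analysis with double markers), Cre-driven recombination between chromosome 11 homologs yields rare GFP+ cells that have lost both Brca1 and p53, and RFP+ wild-type sibling cells, among many heterozygous cells. Here Brca1 flox and p53 KO alleles were on the TG chromosome, and MMTV-Cre drove recombination in mammary epithelium. The labels give the genotype as MADM RG;GR alleles on a mixed background and the treatment as none. Age is not given in the labels. One mouse gave tumors 3 and 4, another gave tumors 10, 11 and 12, and the other 7 mice gave 1 tumor each. Whole tumor tissue was used, so tumor cells, heterozygous host cells, stroma, vessels and leukocytes all contributed RNA. In such bulk tissue, fewer cells of a type and less RNA per cell cannot be told apart.

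Values are TPM, in which reads are divided by gene length and each tumor is scaled to nearly the same total, so levels of different genes can be compared. TPM keeps no read number and the depth is unknown. Between 21415 and 23443 genes per tumor were above 0. Means and SDs below are on the log2(TPM + 1) scale over 9 mice, after averaging tumors of one mouse.

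Metalloproteinases are zinc-dependent endopeptidases that are made as inactive proenzymes and cleave extracellular matrix, growth factors and cell surface proteins once the propeptide is removed. In breast tumors many of them come from fibroblasts, macrophages and neutrophils, whereas Mmp7 is known as an enzyme of epithelial cells. Timp1 blocks the active site of most secreted members but is a poor inhibitor of Mmp14, and Mmp14 activates the Mmp2 proenzyme at the cell surface with the help of Timp2.

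Tumors 2 and 8 had little RNA of epithelial markers, although all 12 samples are labelled as mammary tumors. The median of the 8 epithelial markers (Epcam, Cdh1, Cldn3, Cldn4, Cldn7, Esrp1, Krt8 and Krt18) was 0.195 TPM in tumor 2, where all 8 were at their lowest, and 2.53 TPM in tumor 8. In the other 10 tumors it lay between 309 and 508 TPM. The 5 B lymphocyte markers had a median of 609 TPM in tumor 2, 40.3 TPM in tumor 9 and 0.931 TPM as the median over all 12. Macrophage markers were lowest in tumor 2 (median 30.5 TPM) and highest in tumor 8 (220 TPM, with all 8 genes highest there). Fibroblast markers ranged from 9.25 TPM in tumor 2 to 442 TPM in tumor 4, with 333 TPM in tumor 8, and all 5 endothelial markers were highest in tumor 8. Because these tumors also set many extremes of the metalloproteinases, mean levels are also given without each of them, likeness between genes also without both, and correlations with marker lists also without the 2 mice farthest from the median of the list. How far cell make-up contributes was examined only by the correlations with marker lists given further on.

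The 6 clustered genes lie on the plus strand of chromosome 9 (GRCm38, GENCODE vM21) between 7272514 and 7699585, a stretch of 427 kb. Of the genes that this annotation types as protein-coding and the deposited table holds, 9 lie there. The other 3 are Mmp1b, Mmp27 and Mmp20. Mmp1a is not in this count. From one end to the other the members are Mmp13 (7272514 to 7283331), Mmp12 (7344381 to 7369499), Mmp3 (7445822 to 7455975), Mmp10 (7502352 to 7510240), Mmp8 (7558456 to 7568485) and Mmp7 (7692090 to 7699585). Mmp2 is on chromosome 8 (92827291 to 92853420), Mmp9 on chromosome 2 (164940780 to 164955850), Mmp14 on chromosome 14 (54431612 to 54445364) and Timp1 on chromosome X (20870166 to 20874735), all on the plus strand.

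Promoter sequences are shown for the 5 cluster genes that carry a match to the AP-1 motif TGANTCA. Both strands were searched from 250 bases before to 50 bases after each start in the RefSeq promoter table (GRCm38.p6), which held 8 of the 10 members with 10 start sites. The motif was present in 5 of the 10 promoters and in 7.81% of all 32851 promoters. TATAAA was present in 6 of 10 against 13.6% of all, and the ETS core AGGAAG in 8 of 10 against 35.4% of all. The windows below run from 110 bases before the start to 20 bases from it on, on the plus strand, with AP-1 and TATAAA matches in capitals. They are chr9:7445712-7445841 (Mmp3), chr9:7502232-7502361 (Mmp10), chr9:7272404-7272533 (Mmp13), chr9:7347264-7347393 (Mmp12, the second of its starts) and chr9:7691980-7692109 (Mmp7).
Mmp3: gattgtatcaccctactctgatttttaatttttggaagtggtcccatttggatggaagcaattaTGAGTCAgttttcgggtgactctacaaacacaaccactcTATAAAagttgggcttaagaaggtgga
Mmp10: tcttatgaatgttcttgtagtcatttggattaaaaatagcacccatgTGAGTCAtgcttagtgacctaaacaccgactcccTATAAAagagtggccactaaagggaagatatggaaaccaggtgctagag
Mmp13: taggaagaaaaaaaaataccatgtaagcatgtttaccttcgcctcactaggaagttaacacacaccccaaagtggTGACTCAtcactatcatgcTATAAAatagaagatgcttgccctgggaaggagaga
Mmp12: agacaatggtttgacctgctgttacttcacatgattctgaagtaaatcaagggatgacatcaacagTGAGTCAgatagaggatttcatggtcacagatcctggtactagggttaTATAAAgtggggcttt
Mmp7: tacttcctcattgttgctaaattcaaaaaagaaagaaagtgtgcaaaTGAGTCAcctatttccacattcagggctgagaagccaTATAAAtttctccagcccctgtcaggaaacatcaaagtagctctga
The AP-1 match began 46 bases before the start in Mmp3, 63 in Mmp10, 35 in Mmp13, 44 in Mmp12 and 63 in Mmp7. These matches are letters in a sequence and say nothing of binding. A link between them and the levels across tumors was not tested. Mmp7, with a match, had a Pearson's r over 9 mice of -0.16 with Mmp3, -0.40 with Mmp10 and -0.38 with Mmp13. Mmp8, Mmp14 and Timp1 had no match to TGANTCA in their windows, and other forms of the AP-1 motif were not searched. Mmp2 and Mmp9 had no entry in the promoter table.

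The stromelysins Mmp3 and Mmp10, which cleave proteoglycans, laminin and other proenzymes, reached their highest levels in tumors 8 and 6. Mmp3 had 2910 TPM in tumor 8, followed by 267 TPM in tumor 6. The other tumors had 92.0 TPM (tumor 4), 40.9 (tumor 3), 38.0 (tumor 12), 27.0 (tumor 5), 22.1 (tumor 10), 15.2 (tumor 11), 12.0 (tumor 9), 11.6 (tumor 7), 5.99 (tumor 1) and 1.50 TPM (tumor 2). Tumor 8 thus stood 10.9-fold above the next tumor, and tumor 2 was the lowest. The mean was 5.16 ± 3.05 (log2, SD, n = 9 mice), 5.64 without tumor 2 and 4.37 without tumor 8. Mmp10 was at 636 TPM in tumor 8, 61.5 in tumor 6, 16.1 in tumor 12 and 11.3 TPM in tumor 11. It was at 5.69 TPM or less in the other 8 tumors and was listed at 0 in tumor 9. Its mean was 3.02 ± 2.92 (log2, SD, n = 9 mice), 3.31 without tumor 2 and 2.23 without tumor 8. Mmp3 and Mmp10 share 65 stretches of 75 bases, the read length, which is 3.76% of those in Mmp3 and 3.94% of those in Mmp10, so some reads could have been assigned to either gene. The other members shared no such stretch with another metalloproteinase.

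The collagenases cleave fibrillar collagen. Mmp13 had the same highest tumors as the stromelysins, with 917 TPM in tumor 8 and 106 TPM in tumor 6. It was at 73.0 TPM in tumor 4, at a median of 17.0 TPM over the 12 tumors, and below 1 TPM in tumors 9 (0.674 TPM) and 2 (0.634 TPM). Its mean was 4.22 ± 2.86 (log2, SD, n = 9 mice), 4.66 without tumor 2 and 3.51 without tumor 8. Mmp8, the collagenase stored in neutrophil granules, was low throughout, from 0 in tumor 9 over a median of 1.06 TPM to 3.57 TPM in tumor 7. Its mean was 1.12 ± 0.66 (log2, SD, n = 9 mice), 1.19 without tumor 2 and 1.13 without tumor 8. Tumor 8, with the highest Mmp13, had 1.06 TPM of Mmp8.

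Mmp12, the macrophage elastase, had another order of tumors. It was highest in tumor 6 (218 TPM), followed by tumors 3 (82.5 TPM), 8 (72.2 TPM) and 4 (68.0 TPM). The median was 21.3 TPM, and the lowest values were 4.83 TPM in tumor 2 and 1.64 TPM in tumor 9. Tumor 8 was therefore within the range of the other tumors for this gene, although its macrophage markers were the highest of all. Mmp12 had a mean of 4.57 ± 1.96 (log2, SD, n = 9 mice), 4.83 without tumor 2 and 4.37 without tumor 8. The annotated ends of Mmp12 and its neighbour Mmp1b overlap on opposite strands, and whether reads there were assigned by strand is not stated.

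Mmp7 (matrilysin), the small enzyme that lacks the hemopexin domain, was high in a single tumor. It reached 82.3 TPM in tumor 9, was at 4.62 TPM in tumor 6, the next highest, and was listed at 0 in tumors 2, 8 and 10. Tumor 9 was 17.8-fold above tumor 6, and the median over the 12 tumors was 1.52 TPM. Its mean was 1.73 ± 1.93 (log2, SD, n = 9 mice), 1.95 without tumor 2 or tumor 8 and 1.15 without tumor 9. The same tumor was the lowest for Mmp10, Mmp12 and Mmp8 and near the lowest for Mmp13. In tumor 9 the epithelial markers had a median of 387 TPM, but their sum (3339 TPM) was the lowest of the 10 tumors other than 2 and 8. Among these 10, Cdh1 (82.6 TPM), Cldn3 (212 TPM), Cldn7 (122 TPM), Krt8 (677 TPM) and Krt18 (562 TPM) were lowest in tumor 9. Epcam, Cldn4 and Esrp1 were not.

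The gelatinases Mmp2 and Mmp9 cleave denatured collagen and basement membrane collagen. Mmp2 was highest in tumors 8 (215 TPM) and 4 (161 TPM), had a median of 27.0 TPM and was lowest in tumors 7 (7.79 TPM) and 2 (0.476 TPM). Its mean was 4.61 ± 1.99 (log2, SD, n = 9 mice), 5.12 without tumor 2 and 4.22 without tumor 8. Mmp9 reached 827 TPM in tumor 8, compared with 27.8 TPM in tumor 4 as the next highest, a 29.7-fold gap that was the widest of any member whose highest tumor was tumor 8. The median of Mmp9 was 17.4 TPM, and tumor 2 was again the lowest with 0.560 TPM. The mean of Mmp9 was 4.09 ± 2.45 (log2, SD, n = 9 mice), 4.53 without tumor 2 and 3.39 without tumor 8.

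Mmp14 and Timp1 were the most abundant members by mean on the log2 scale. By mean TPM over mice, which a single high tumor can set, Mmp3 came first (370 TPM), followed by Timp1 (220 TPM) and Mmp14 (198 TPM). Mmp14 was at 78.7 TPM in tumor 2, at 136 TPM in tumors 5 and 9, at a median of 185 TPM and at 450 TPM in tumor 8. Its mean was 7.49 ± 0.67 (log2, SD, n = 9 mice), 7.64 without tumor 2 and 7.33 without tumor 8, so the tumors lay closer together than for the other abundant members. Timp1 was at 492 TPM in tumor 8, 490 in tumor 4 and 466 TPM in tumor 1, with a median of 184 TPM. The lowest tumors were 2 (4.02 TPM) and 9 (7.31 TPM), and the next was tumor 12 with 91.9 TPM. Tumors 2 and 9 were thus far below the others in Timp1, and tumor 9 had 136 TPM of Mmp14. Timp1 had a mean of 6.73 ± 2.43 (log2, SD, n = 9 mice), 7.28 without tumor 2, 6.46 without tumor 8 and 7.71 over the 6 mice left without tumors 2, 8 and 9.

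**Figure D1:**
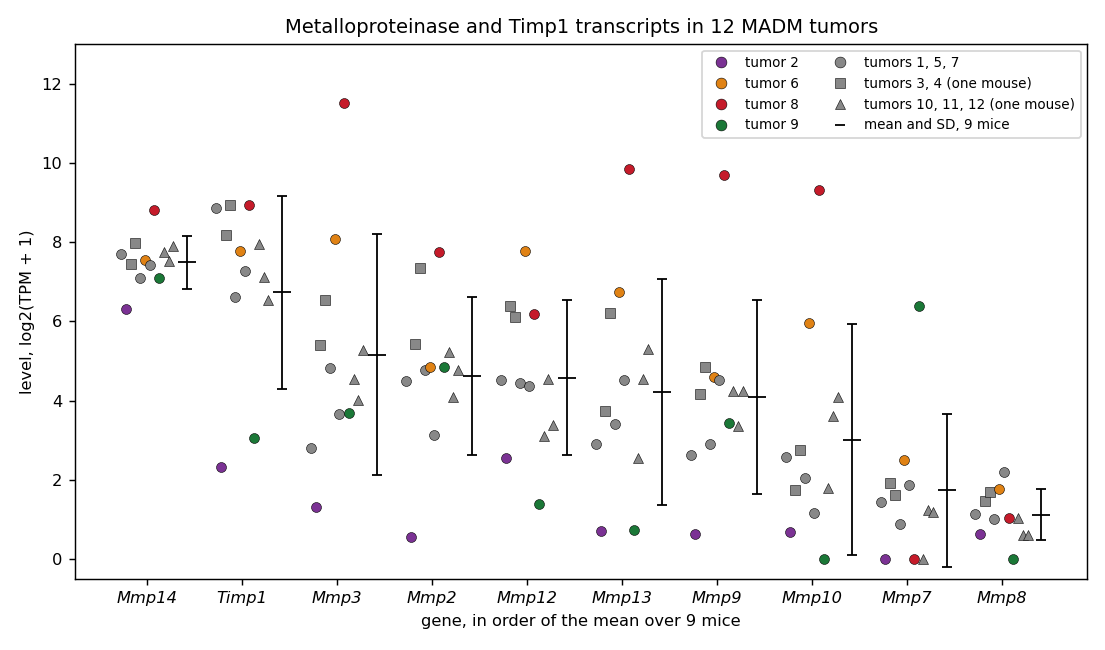
Level of each member as log2(TPM + 1) in the 12 tumors, with genes on the x axis in order of their mean and, to the right of each gene, the mean and SD over 9 mice. Tumor 8 is highest for Mmp14, Timp1, Mmp3, Mmp2, Mmp13, Mmp9 and Mmp10, tumor 6 for Mmp12, tumor 9 for Mmp7 and tumor 7 for Mmp8.

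By mean level on the log2 scale the order was Mmp14, Timp1, Mmp3, Mmp2, Mmp12, Mmp13, Mmp9, Mmp10, Mmp7 and Mmp8. None of the 9 neighbouring pairs differed by more than the SD of their paired difference over 9 mice. The closest pair was Mmp2 and Mmp12, which differed by 0.035 ± 1.92 (log2, SD), with Mmp2 higher in 5 of 9 mice. On the log2 scale the span between the highest and the lowest mouse had a median of 6.91 over the 10 members and 1.82 over the 16802 genes with a mean of 1 TPM or more, and 6.38 against 1.45 without tumor 2. A span as wide as that of Mmp3 (10.2) was found in 0.143% of these genes, whereas 32.5% had one as wide as Mmp14 and 39.1% one as wide as Mmp8. As the members were chosen with these values known, the spans are a description.

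The make-up of the metalloproteinase transcripts differed between tumors. The summed TPM of the 9 enzymes ran from 87.9 in tumor 2 over a median of 293 to 897 in tumor 6 and 6029 in tumor 8. Mmp14 was the most abundant of the 9 in 10 tumors, with 89.6% of the sum in tumor 2 and 7.47% in tumor 8. Mmp3 led in the other 2, tumors 6 and 8, where the 6 chromosome 9 genes together made up 73.6% and 75.3% of the sum, compared with a median of 27.0% over all tumors. In tumor 9 the cluster's share was 35.8%, and Mmp7 was its largest part. The ratio of Timp1 to the summed enzymes was 1.68 in tumor 1, had a median of 0.455 and was lowest in tumors 9 (0.027), 2 (0.046) and 8 (0.082). The low ratios stood on different values, with little Timp1 in tumors 2 and 9 and a large enzyme sum beside the highest Timp1 in tumor 8. A ratio of transcripts does not measure enzyme activity.

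**Figure D2:**
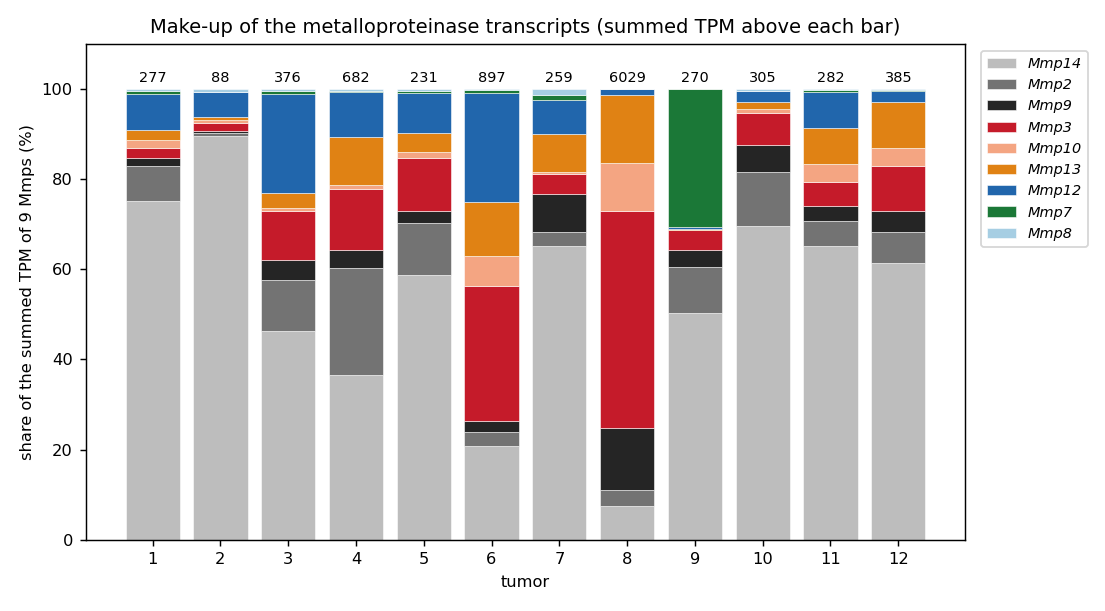
Share of each of 9 metalloproteinases in their summed TPM (y axis, %) for tumors 1 to 12 (x axis), with the summed TPM above each bar. Mmp14 (light gray) fills most of the bar in most tumors, the 6 chromosome 9 genes fill 73.6% in tumor 6 and 75.3% in tumor 8, and Mmp7 (green) is visible as a large part in tumor 9 alone.

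Tumors of one mouse were not alike for all members. Mmp13 was at 12.2 TPM in tumor 3 and 73.0 TPM in tumor 4 of the same mouse, and at 4.88, 22.3 and 38.7 TPM in tumors 10, 11 and 12. Its median difference between 2 tumors of a mouse was 2.24 on the log2 scale (4 pairs), beside 2.68 between tumors of different mice (62 pairs). For Mmp3 these values were 0.95 and 2.50, and for Mmp14 0.29 and 0.47. Mmp2 was at 41.9 TPM in tumor 3 and 161 TPM in tumor 4, and the fibroblast markers had medians of 176 and 442 TPM in these tumors. With 2 mice that had more than 1 tumor, these distances were not tested.

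Along chromosome 9 the levels of tumors 6 and 8 varied from gene to gene. Mmp1b, which is no member, had 15.5 TPM in tumor 6, 13.6 TPM in tumor 8 and no more than 1.36 TPM elsewhere. Mmp1a, which is not among the protein-coding genes counted in the stretch, had 2.78 TPM in tumor 6, 3.40 TPM in tumor 8 and no more than 0.308 TPM elsewhere. Mmp8, Mmp27 and Mmp20, which lie between Mmp10 and Mmp7, were at 3.57 TPM or less in every tumor. Dcun1d5, the gene before Mmp13 and a partner of cullin neddylation, ranged from 66.3 TPM in tumor 9 to 160 TPM in tumor 6, with 150 TPM in tumor 8 and 146 TPM in the highest of the other tumors. Tumors 6 and 8 were also above the 9 tumors other than tumor 9 at Tmem123 (138 and 134 TPM, against at most 114 TPM), Birc3 (97.4 and 148 TPM, against at most 77.7 TPM) and Casp12, an inflammatory caspase gene (68.1 and 63.6 TPM, against at most 46.6 TPM). Beyond Mmp7, the membrane protein gene Tmem123 and the apoptosis inhibitors Birc2 and Birc3 were highest in tumor 9, like Mmp7. Tmem123 was at 732 TPM there (median 97.8 TPM), Birc2 at 300 TPM (median 39.8 TPM) and Birc3 at 404 TPM (median 59.0 TPM). Yap1, the Hippo pathway coactivator that comes next, was at 46.3 TPM in tumor 9, below its median of 75.4 TPM, and was highest in tumor 6 (157 TPM). The DNA copy number of the region was not analysed here.

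**Figure D3:**
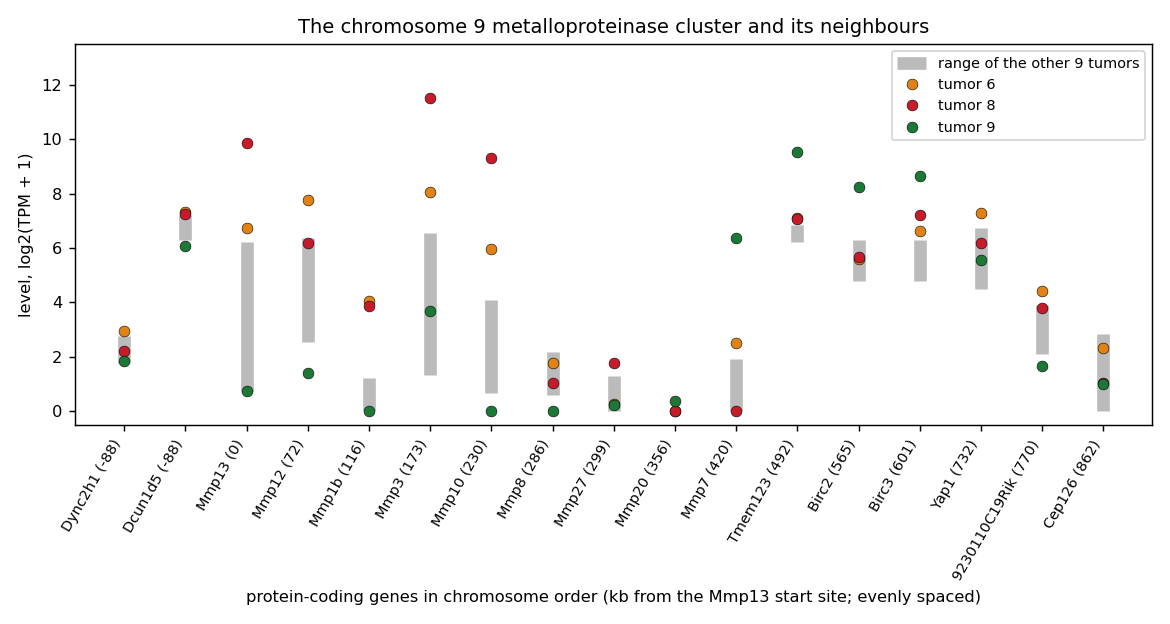
Level as log2(TPM + 1) of protein-coding genes in chromosome order around the metalloproteinase cluster, evenly spaced, with the distance of each start site from that of Mmp13 in kb in the labels. Gray bars are the range of 9 tumors, and points are tumors 6, 8 and 9: red (tumor 8) and orange (tumor 6) lie above the gray range at Mmp13, Mmp1b, Mmp3 and Mmp10 and by less at Dcun1d5, Tmem123 and Birc3, and green (tumor 9) lies above it at Mmp7, Tmem123, Birc2 and Birc3.

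Across the 9 mice Mmp3, Mmp10 and Mmp13 had similar profiles. Pearson's r on the log2 scale was 0.93 for Mmp3 with Mmp13, 0.93 for Mmp10 with Mmp13 and 0.92 for Mmp3 with Mmp10. Without tumor 8 these were 0.85, 0.83 and 0.78, and without tumors 2 and 8 they were 0.78, 0.82 and 0.77. Tumor 6 was the highest for each of these genes among the mice then left. It was kept in all of these values, so how far they rest on it was not tested. Mmp9, on another chromosome, had r = 0.92 with Mmp3, 0.90 with Mmp13 and 0.83 with Mmp10, and 0.62, 0.69 and 0.33 without tumors 2 and 8. Mmp12 with Mmp13 had r = 0.82, and 0.93 without tumors 2 and 8. Mmp7 had an r between -0.40 and 0.08 with the other 9 members, and between -0.82 (Timp1) and 0.05 (Mmp2) without tumors 2 and 8. Tumor 9 was kept in these values, and with 82.3 TPM of Mmp7 and 7.31 TPM of Timp1 it lay far from the other mice left. The -0.82 is therefore no sign of a relation over all 7 mice. These values are descriptive, since all genes were measured in the same libraries and tumors 2 and 8 were the extremes of many of them.

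**Figure D4:**
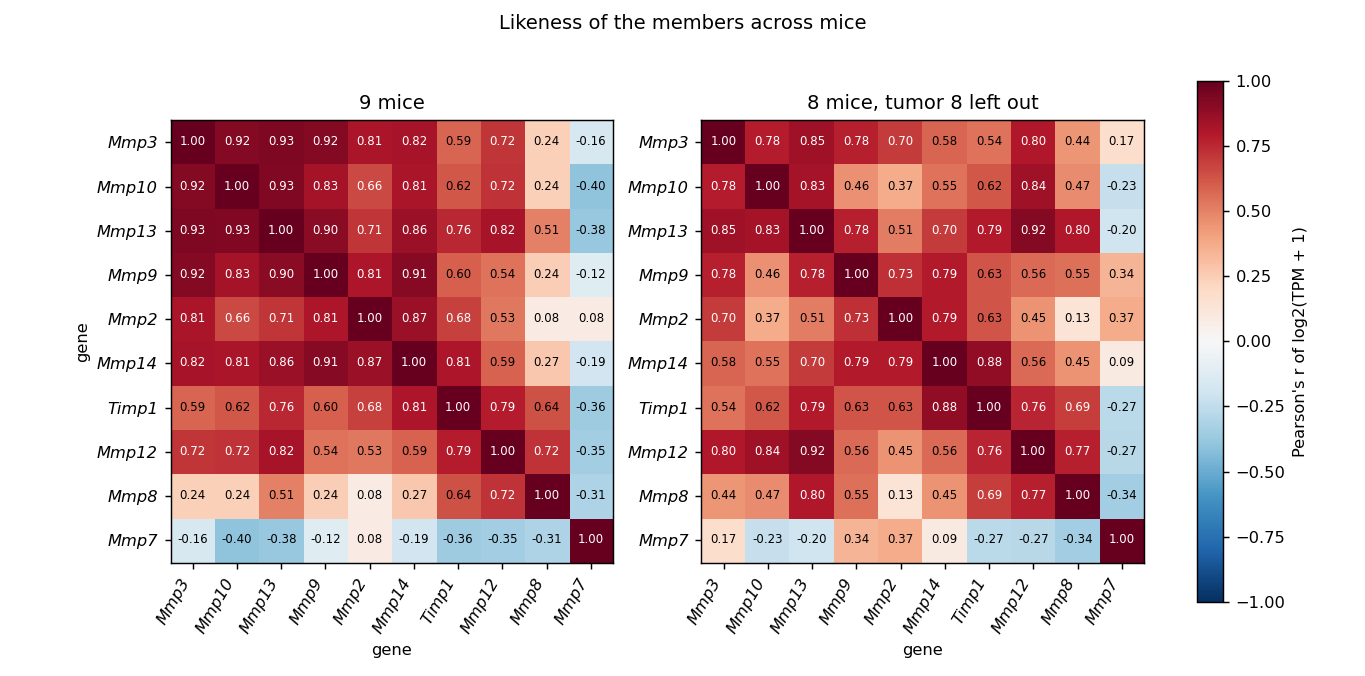
Pearson's r of log2(TPM + 1) between every pair of members over 9 mice (left) and over the 8 mice without tumor 8 (right), from -1 (blue) to 1 (red). Mmp3, Mmp10, Mmp13 and Mmp9 have r of 0.83 or more with each other on the left and of 0.46 to 0.85 on the right, and Mmp7 is near 0 or below with the others on the left.

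The genes most like each member were taken from 12778 genes with a mean of 5 TPM or more, by Pearson's r over 9 mice. For Mmp3 and Mmp10 the first was the amino acid transporter gene Slc36a4 (r = 0.97 and 0.95). For Mmp13 it was Prrx1, a homeobox gene of mesenchyme (r = 0.97), which had a median of 8.51 TPM and 172 TPM in tumor 8. For Mmp2 it was Plbd2 (r = 0.98), followed by the fibroblast surface gene Thy1 and the collagen-binding proteoglycan Lum. For Mmp9 it was Tie1, an endothelial receptor (r = 0.97), and for Mmp14 it was Has2, a hyaluronan synthase (r = 0.99). For Timp1 it was the calpain Capn2 (r = 1.00), followed by Ncs1 and the skeletal transcription factor Runx2. For Mmp12 it was the kinase gene Pdk3 (r = 0.96), for Mmp8 the gene model Gm9242 (r = 0.96) and for Mmp7 the gene model Gm10293 (r = 0.98), which at 17.6 TPM was highest in tumor 9 as well. The next 2 genes were Crabp1 and Vamp7 for Mmp3, Prrx1 and P3h1 for Mmp10, Rap2b and Fcgr2b for Mmp13, Tbc1d2b and Emilin1 for Mmp9, Nid1 and Procr for Mmp14, 9230110C19Rik and Lpin2 for Mmp12, Sp3 and Metap1 for Mmp8, and Gm10284 and Nub1 for Mmp7. Without tumors 2 and 8 the r of the first gene of each member was between 0.88 (Mmp3 with Slc36a4) and 0.99 (Timp1 with Capn2). Tumor 9 was kept in these values. It was the highest for Mmp7 and Gm10293, and was low for both Timp1 (7.31 TPM) and Capn2 (32.3 TPM, median 135 TPM). The lowest r without these tumors were those of Mmp9 with Tbc1d2b (0.67) and Emilin1 (0.66). With so many genes and 9 mice, high values of r arise in any such ranking, and no p is given.

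The relation of each enzyme to markers of the cells known to make it was tested over 9 mice, as 10 relations with exact permutation tests (two-sided) and Benjamini-Hochberg adjustment. The list value was the median over its genes of log2(TPM + 1). Members and lists were chosen with earlier results of these tumors known, which the p-values do not take into account. By Pearson's r, 3 of the 10 passed an adjusted 0.05, and by Spearman's rho none did, while 5 and 3 had an unadjusted p below 0.05. Mmp2 rose with the 8 fibroblast markers, with r = 0.96 (exact permutation p = 0.00031, adjusted p = 0.0031) and rho = 0.73 (p = 0.031, adjusted p = 0.10). Without the mice of tumors 2 and 8, the farthest from the median of the list, r was 0.89 (exact permutation p = 0.040, 7 mice). Mmp8 rose with the 6 neutrophil markers, with r = 0.86 (exact permutation p = 0.0026, adjusted p = 0.013) and rho = 0.83 (p = 0.0083, adjusted p = 0.083), and with r = 0.81 (p = 0.025) without tumors 2 and 9. The levels of Mmp8 behind this relation were all below 4 TPM, and without the mouse of tumor 7 it no longer passed after adjustment. Mmp14 with the fibroblast markers had r = 0.82 (exact permutation p = 0.010, adjusted p = 0.035) and rho = 0.63 (p = 0.076, adjusted p = 0.13). That relation rested on tumors 2 and 8, as r was 0.33 without them (exact permutation p = 0.48, 7 mice).

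The other relations did not pass after adjustment over the 9 mice. Mmp3 with the fibroblast markers had r = 0.69 (exact permutation p = 0.039, adjusted p = 0.083) and rho = 0.63 (p = 0.076), and Timp1 with the same list had r = 0.69 (exact permutation p = 0.041, adjusted p = 0.083) and rho = 0.63 (p = 0.076). Without tumors 2 and 8 their r was 0.12 and 0.29. Mmp13 with the fibroblast markers had r = 0.62 (exact permutation p = 0.072, adjusted p = 0.12) and rho = 0.47 (p = 0.21), and r = -0.03 without those tumors. Mmp12 with the 8 macrophage markers had r = 0.26 (exact permutation p = 0.51) and rho = -0.12 (p = 0.78), and r = -0.65 (p = 0.12) without tumors 2 and 8. Mmp9 with the neutrophil markers had r = 0.52 (exact permutation p = 0.17, adjusted p = 0.23) and rho = 0.73 (p = 0.031, adjusted p = 0.10). Without tumors 2 and 9, the farthest from the median of the list, r was 0.20 (exact permutation p = 0.67, 7 mice). With each mouse left out it ranged from 0.28 without tumor 2 to 0.82 without tumor 8 and passed an adjusted 0.05 in the latter case alone, and it was 0.92 over the 6 mice left without tumors 2, 8 and 9 (exact permutation, adjusted p = 0.097). Tumor 8 had 827 TPM of Mmp9 beside a median of 14.9 TPM for the neutrophil markers. Mmp7 and Mmp10 with the epithelial markers did not pass over 9 mice (exact permutation, adjusted p = 0.23 and 0.49). These markers put tumors 2 and 8 in a separate cluster, so r is given within the other 7 mice, where it was -0.24 (exact permutation p = 0.77) and -0.04 (p = 0.94).

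**Figure D5:**
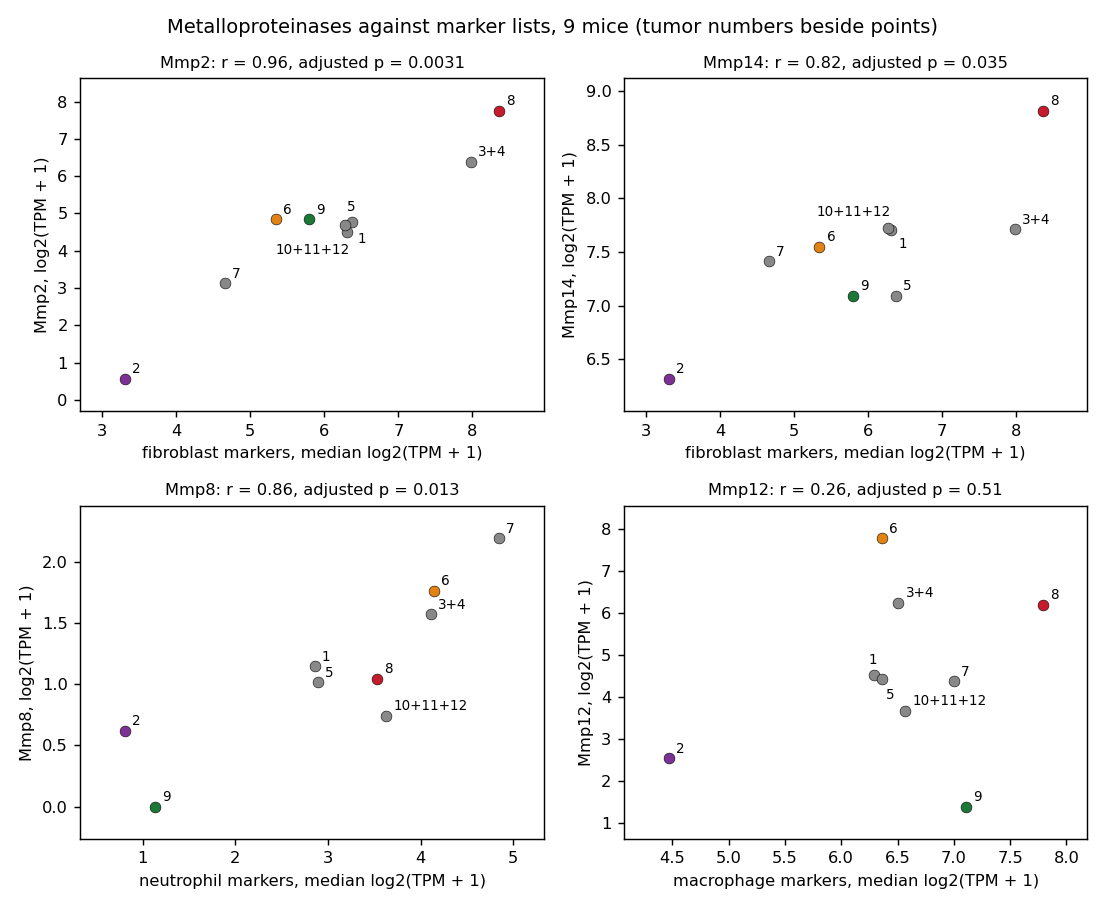
Levels of Mmp2, Mmp14, Mmp8 and Mmp12 (y axes, log2(TPM + 1)) against the median of fibroblast, neutrophil or macrophage markers (x axes, log2(TPM + 1)), 1 point for each of 9 mice with its tumor numbers. Mmp2 is low in tumors 2 and 7 and high in tumors 3, 4 and 8 like the fibroblast markers and nearly level over the 5 mice between, Mmp14 mainly through tumors 2 and 8, and Mmp12 has no common trend with the macrophage markers.

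The other genes of the system were read as lists without a test, and are ranked within a list by mean TPM over mice. Of 14 further metalloproteinases, 3 were at 1 TPM or more in all tumors (Mmp11, Mmp19 and Mmp23), 4 were below 1 TPM in all, and 7 were mixed. Mmp11 (stromelysin 3) was highest in tumor 2 with 43.8 TPM, where 5 of the 9 enzymes above (Mmp2, Mmp3, Mmp9, Mmp13 and Mmp14) were lowest and Mmp7 was at 0 as in tumors 8 and 10, and Mmp23 was at 193 TPM in tumor 9 beside a median of 7.67 TPM. By mean TPM Mmp23 came first of the 14 (28.6 TPM), through tumor 9, and Mmp15 next (27.8 TPM, with a median of 25.8 TPM). Mmp21 was the lowest, at 0.060 TPM or less. The membrane-type Mmp15 ranged from 0.587 TPM in tumor 2 to 93.8 TPM in tumor 5. Among the other inhibitors, Timp2 ranged from 5.75 TPM in tumor 2 to 568 TPM in tumor 8. It had 139 TPM in tumor 9, where Timp1 was near its lowest. Timp3, which binds to matrix, ranged from 3.64 to 99.9 TPM, and Timp4 was below 1 TPM in every tumor.

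Plasmin is a known activator of several proenzymes. Its precursor Plg was listed at 0 in all tumors, whereas the urokinase gene Plau ranged from 6.99 TPM in tumor 2 to 145 TPM in tumor 8 and its receptor Plaur from 1.32 TPM in tumor 2 to 179 TPM in tumor 3. Serpine2, a serine protease inhibitor, was the highest of the 8 genes of this list by mean and ranged from 17.6 to 620 TPM. Of 12 AP-1, ETS and Runx factors, 9 were at 1 TPM or more in all tumors. Junb was the highest of them by mean, up to 315 TPM in tumor 1, and Fosb the lowest, at 6.25 TPM or less. Fosl1, an AP-1 subunit, ranged from 0.252 TPM in tumor 9 to 99.9 TPM in tumor 8 (this gene was picked after its values were seen). Of the 8 inducers, Bsg, a surface inducer of metalloproteinases, was the highest by mean (263 to 1146 TPM) and Il6 the lowest, at 6.20 TPM or less. Among 9 matrix substrates, Spp1 was the highest by mean, from 45.7 TPM in tumor 9 to 6630 TPM in tumor 11, and Eln, the substrate of Mmp12, the lowest, from 0.621 to 110 TPM.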

How the data were processed

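The deposited values are TPM per Ensembl gene and tumor, which the authors made from stranded mRNA libraries and 75-bp paired-end reads by trimming with fastq-mcf, aligning to GRCm38 with HISAT2 and quantifying with StringTie 2.1.6. How they combined the transcripts of a gene is not given in the sources used here. Since TPM holds no read number, depth is unknown and count models were not applied. The members and lists were chosen with earlier results of these data known. The log2(TPM + 1) values were averaged over tumors of one mouse (n = 9 mice). The tests were the 10 correlations of a member with a marker list, with exact permutation over mice and Benjamini-Hochberg adjustment. On simulated data 2% of 100 tests without a relation passed 0.05 and 97% of 100 with a strong one, and weaker relations were not simulated. Named genes were all members, the genes most like each by r (3 were ranked), of each list the genes with the highest and lowest mean, Timp2, Plau, Plaur and the neighbours on chromosome 9. Not all genes this rule names are reported here. Other metalloproteinases, Timp3 and Fosl1 were named after their values were seen. Alternatives were a pseudocount of 0.1, the mean of TPM, each tumor as a unit, the list mean, a filter on list genes below a mean of 1 TPM, Spearman's rho, rescaling without mitochondrial genes and leaving out each mouse. Leaving out the mice of tumors 2, 8 and 9 together, or for likeness of tumors 2 and 8, was chosen after seeing the data. Python 3.11.15, pandas 2.3.3 and scipy 1.17.1 were used.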

Additional observations from a re-analysis of the deposited data

Results flagged for a closer look

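The highest and lowest of the 9 mice were compared with their neighbours for the 10 members and 4 marker lists by Dixon's ratio of the gap to the range, which exceeds its critical value by chance in about 1 in 20 groups. As the members were chosen with these values known, the ratios describe the values and test nothing. Of the 14 groups of 9 values, each compared at both ends, 3 had 1 ratio above the critical value. Mmp7 was at 6.38 (log2) in tumor 9, and the nearest mouse was at 2.49 (ratio 0.610). Mmp9 was at 9.69 in tumor 8, and the nearest mouse was at 4.60 (ratio 0.563). The macrophage marker list was at 4.47 in tumor 2, and the nearest mouse was at 6.29 (ratio 0.549).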

How the results depend on the processing

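No paired analysis was possible because the 12 tumors form a single group. Of 130 mean levels recomputed under the alternatives, 129 moved by less than 1 SD. The exception was Mmp8, at 0.073 instead of 1.12 (log2) with a pseudocount of 0.1. Of the 10 places in the order of levels, 3 were kept with the mean of TPM (Mmp3, not Mmp14, was then first), 5 to 10 with each mouse left out (5 without tumor 9) and 5 without the mice of tumors 2, 8 and 9. The 3 correlations that passed became 5 with each tumor as a unit, 0 by Spearman's rho, and 1 (without tumor 7) to 5 (without tumor 9) with each mouse left out. They became 0 without the mice of tumors 2, 8 and 9, where 6 mice remained. There r was 0.91 for Mmp2 and 0.32 for Mmp14 with the fibroblast markers and 0.82 for Mmp8 with the neutrophil markers. A pass was gained by Mmp3 with the fibroblast markers (each tumor as a unit, the list mean, or without tumor 6), Timp1 with the same list (each tumor as a unit, or without tumor 9), Mmp9 with the neutrophil markers (without tumor 8) and Mmp7 with the epithelial markers (without tumor 9). The sign turned for Mmp13 with the fibroblast markers (-0.20), Mmp12 with the macrophage markers (-0.31) and Mmp7 with the epithelial markers (-0.21) without those 3 mice, and for Mmp12 also by Spearman's rho (-0.12) and without tumor 2 (-0.13), whereas it stayed positive without any other mouse (up to 0.54). Mmp10 with the epithelial markers ranged from -0.81 to 0.34 (without tumor 8) with each mouse left out, a relation set by the separate cluster of tumors 2 and 8. Mmp14 with the fibroblast markers lost its pass without tumor 2 (r = 0.68) or tumor 8 (0.73), and, with r as large as before or larger, without tumor 1 (0.82), tumors 3 and 4 (0.87) or tumor 7 (0.86; adjusted p 0.051 to 0.054 by exact permutation over 8 mice), and Mmp8 with the neutrophil markers without tumor 7 (r = 0.82). The cause was not tested. TPM without read numbers limits what can be said of Mmp8 and of values near 0.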
